A study of Mus musculus with 20 samples.

Results

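The ileum, the last segment of the small intestine, was compared between Gpr35-/- and Gpr35+/+ mice by RNAseq. The 10 ileum libraries, 5 per genotype, are part of a series of 20 libraries, the other 10 being bone marrow-derived macrophages of the same genotypes. The deposited ileum table holds 23361 rows, of which 11574 genes were tested. A gene was tested where it had at least 0.5 FPKM in at least 5 libraries, its row carried a gene name and not a date, and it was not absent (0 in each library) from one genotype while every library of the other reached 1 FPKM. FPKM is the read number of a gene scaled by the length of its transcript and the reads of the library. The study asked how the receptor acts on ion balance and sodium-dependent transport, and the sequencing asked which transcripts differ in its absence. The knockout is a global one from the KOMP repository, so the gene was missing in every cell type of the mouse and not in the epithelium alone. The methods of the study describe mice of 6 to 12 weeks, matched for age and sex and bred from heterozygous parents, and the labels give no treatment. The mice were C57BL/6, and the sources used here give neither the subline nor the time of day at which tissue was taken. For the ileum RNAseq, 1 legend of the study gives 6 per genotype and another 5 mice per genotype. Here 5 libraries per genotype were available. The labels do not tie each library to a mouse, and p-values measure the spread between these libraries.

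GPR35 belongs to the orphan receptors, those with no settled ligand, and signals through inhibitory G proteins, the G12/13 class and arrestins, and is present on intestinal epithelium and on several immune cells. Proposed ligands include kynurenic acid, a product of tryptophan breakdown. The receptor is known to bind the Na+/K+-ATPase, the pump that keeps sodium low inside cells and so drives sodium-coupled uptake and water movement across the gut wall.

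All libraries carried the epithelial and ileal genes that the label predicts. Villin (Vil1), a protein of the brush border, lay between 951 and 1732 FPKM, and Fabp6, the ileal bile acid-binding protein, between 10117 and 34321 FPKM. The bile acid importer Slc10a2 lay between 18.5 and 217 FPKM in all 10 libraries. None of 10 genes for blood cells and platelets passed the filter, 1 of 14 genes for enteric neurons and glia did, and the 14 pancreatic genes summed to 23.3 to 72.9 FPKM. Xist was present in all 10 libraries, at 4.79 to 11.7 FPKM. The Y-linked genes Ddx3y, Kdm5d, Eif2s3y and Uty were below the filter. With them added to Xist the sum had the same range, 4.79 to 11.7 FPKM, the pattern of female mice. The reporting summary of the study describes equal numbers of both sexes, without tying this to the sequencing. The depth of a library relative to Gpr35+/+ library 1, read from the size of the smallest steps among low genes, was 1.27 ± 0.369 (SD, n = 5) in Gpr35+/+ and 1.83 ± 0.399 (SD, n = 5) in Gpr35-/-, and this difference had p = 0.048 in a two-sided exact permutation test whose smallest possible p is 0.0079. Total reads are unknown, and no counting intervals are given. Libraries also stood apart in ways that genotype did not explain: Gpr35+/+ libraries 1 and 3 and Gpr35-/- library 2 lay at the low end of the first principal component, which held 27% of the variance, and Gpr35+/+ libraries 1 and 2 and Gpr35-/- library 1 had low levels of the clock gene Dbp. The counts of genes over the whole table are therefore also given without each of these sets of 3 libraries.

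Few transcripts separated the genotypes. In limma on log2(FPKM + 0.5), with p-values adjusted by the Benjamini-Hochberg method and a threshold of 0.05, 2 genes rose in Gpr35-/- ileum (0.0173% of the 11574 tested) and 3 fell (0.0259%). The pseudocount of 0.5 understates the change of low genes, and every change below is on this scale. Gpr35, Gm3776 and Lmbr1 fell, and Wdfy1 and Aqp12 rose. An unadjusted p under 0.05 was found for 502 genes, 4.34% of those tested. The 5 values of one genotype did not overlap the 5 of the other in 99 genes, 0.855% of those tested. The estimate lay above 0 in 54.4% of all genes, with a median of 0.01. Without the 3 libraries of low Dbp, 2 genes were called higher and 3 lower, but the small nucleolar RNA Snora68 took the place of Aqp12. Snora68 had 0, 57.5, 0, 0 and 0 FPKM in Gpr35+/+ and 15.8, 94.2, 67.0, 75.99 and 25.2 FPKM in Gpr35-/- libraries 1 to 5, and library 2 of Gpr35+/+ is among those left out. In the same setting 524 genes had an unadjusted p under 0.05 and 636 did not overlap. Without the 3 libraries at the low end of the first component 13 were called higher and 19 lower, 1498 had an unadjusted p under 0.05 and 1415 did not overlap. Without Gpr35+/+ library 3 alone 4 genes were called higher and 10 lower, with 767 and 302 for the other counts, and 4 were called higher without Gpr35-/- library 2. Fewer libraries overlap less by construction.

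**Figure D1:**
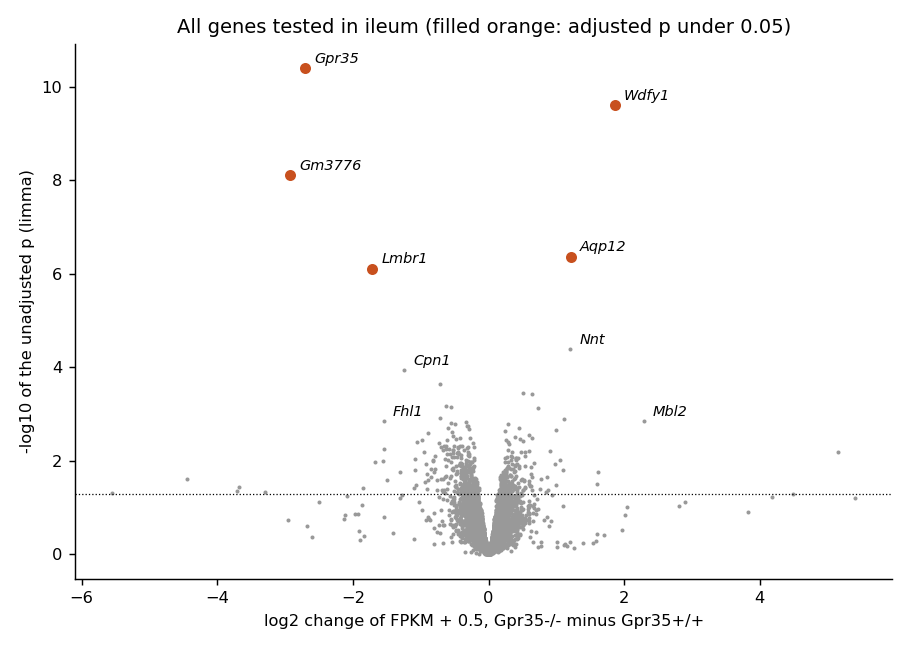
Log2 change of FPKM + 0.5 in Gpr35-/- against Gpr35+/+ ileum (horizontal axis) and the -log10 of the unadjusted limma p (vertical axis) for each of the 11574 genes tested. Filled orange points are the 5 genes that passed the adjusted threshold, 2 to the right of 0 and 3 to the left, and the dotted line marks an unadjusted p of 0.05.

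The targeted gene was near 0 in the knockout. Gpr35, on chromosome 1 of GRCm38 from 92950865 to 92986391, had 2.49, 2.83, 2.95, 2.80 and 3.85 FPKM in Gpr35+/+ libraries 1 to 5. In Gpr35-/- libraries 1 to 5 it had 0.0337, 0.0205, 0.00970, 0.0408 and 0.0406 FPKM. The genotypes were far apart, with a change of -2.71 (standard error 0.11, adjusted p = 4.6e-07).

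Wdfy1, a FYVE-domain protein of early endosomes that takes part in signalling from TLR3 and TLR4, rose. Gpr35+/+ libraries 1 to 5 held 3.52, 4.67, 3.37, 4.199 and 3.87 FPKM, and Gpr35-/- libraries 14.6, 15.1, 14.7, 17.01 and 16.3 FPKM. The spread within each genotype was small against the step between them, and the change was 1.86 (standard error 0.09, adjusted p = 1.4e-06). The gene lies on chromosome 1 (79702262 to 79776143) and starts 13.2 Mb before Gpr35. Of 66 tested genes that start between these genes, 3 had an unadjusted p under 0.05, near the 4.34% of all genes, and 0 passed the adjusted threshold. Their changes ran from -2.08 to 0.53, the lowest being that of the small RNA Scarna6, which was at 0 in libraries of both genotypes. Among 12 tested WDFY proteins and members of TLR3 and TLR4 signalling, Wdfy1 alone was called. Tlr3 had a change of 0.00 and its adaptor Ticam1 one of -0.10, and the ubiquitin ligase Traf6 had 0.21 (adjusted p = 1.0).

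Aqp12, an aquaporin known from acinar cells of the pancreas, rose from near 0. It had 0.0731, 0.0528, 0, 0 and 0.0721 FPKM in Gpr35+/+ libraries 1 to 5 and 0.754, 0.563, 0.904, 0.653 and 0.928 FPKM in Gpr35-/- libraries 1 to 5. All knockout libraries lay above all Gpr35+/+ libraries, with a change of 1.22 (standard error 0.12, adjusted p = 0.0012). Aqp12, Gpr35, Gm3776 and Lmbr1 are the 4 tested genes that passed the filter through a single genotype, so that a difference was built into their being tested. The gene (chromosome 1, 93006334 to 93012269) starts 19.9 kb after the end of Gpr35. Without the 3 libraries of low Dbp its change was 1.26, close to that with all libraries, and its adjusted p was 0.072. Of the 5 aquaporins tested it was the only one called, and 4 of the 5 had estimates above 0 with a median of 0.14.

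The genes next to Gpr35 showed no comparable step. Of 35 tested genes starting within 2 Mb of its start, 33 remain without Gpr35 and Aqp12. Their changes ran from -0.42 (Bok, a BCL2-family protein) to 0.23 (Pdcd1, the PD-1 receptor), with a median of -0.01 and 15 of 33 above 0. Ramp1, an accessory protein of the receptor for calcitonin gene-related peptide, was the 1 gene of these with an unadjusted p under 0.05, at -0.26. The calpain gene Capn10 had -0.20, Dusp28 0.07 and Rnpepl1 -0.08.

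**Figure D2:**
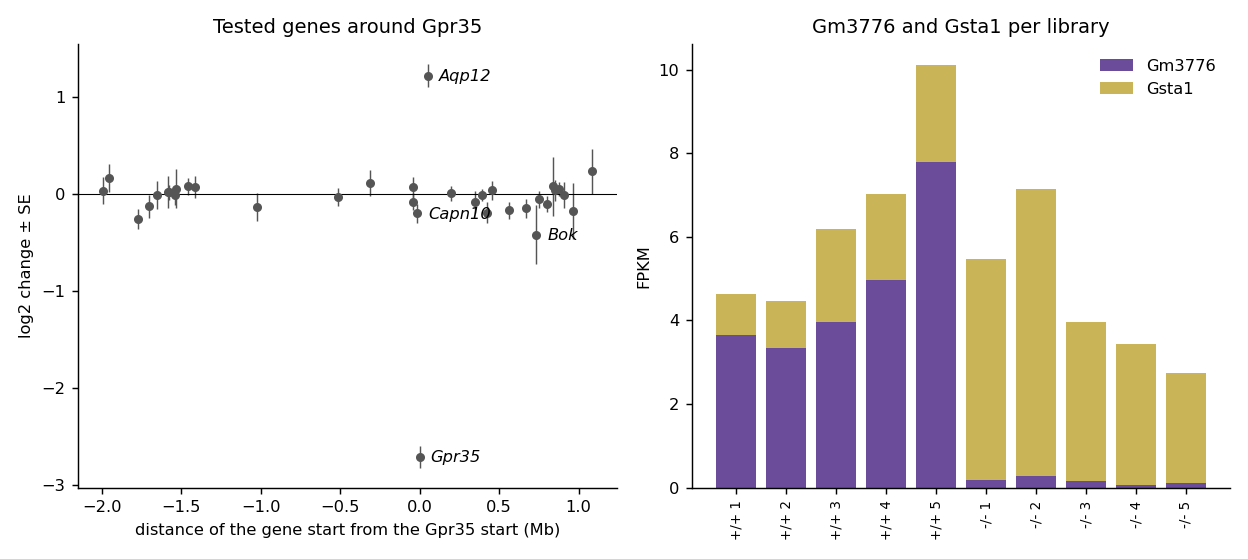
Left, log2 change with its standard error for each tested gene by the distance of its start from the start of Gpr35 (Mb). Gpr35 (-2.71) and Aqp12 (1.22) stand away from the other 33, which lie between -0.42 and 0.23. Right, FPKM of Gm3776 and Gsta1 stacked for each of the 10 ileum libraries. Gm3776 makes up most of the stack in Gpr35+/+ and Gsta1 nearly all of it in Gpr35-/-.

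Lmbr1, a membrane protein best known because an intron of its gene holds the limb enhancer of Sonic hedgehog, fell. It had 0.982, 0.877, 1.57, 1.80 and 2.11 FPKM in Gpr35+/+ libraries 1 to 5 and 0.0432, 0.129, 0.0919, 0.104 and 0.0433 FPKM in Gpr35-/- libraries 1 to 5. The groups did not overlap, and the change was -1.72 (standard error 0.18, adjusted p = 0.0018). The gene lies on chromosome 5 from 29229802 to 29378390, so unlike Wdfy1 and Aqp12 it is not on the chromosome of Gpr35.

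Gm3776 encodes a glutathione transferase of the alpha class, enzymes that couple glutathione to reactive compounds, and it fell. Its levels were 3.66, 3.34, 3.97, 4.96 and 7.78 FPKM in Gpr35+/+ libraries 1 to 5 and 0.191, 0.285, 0.162, 0.0613 and 0.122 FPKM in Gpr35-/- libraries 1 to 5. The change was -2.93 (standard error 0.20, adjusted p = 3.0e-05). Gm3776 (chromosome 9, 78257129 to 78269166) has a close copy on the same chromosome, Gsta1, and the 2 coding sequences of 672 bases each differ at 2 positions. Both positions are shown because the reads that tell the genes apart within the coding sequence must cover them. Each stretch of 50 bases below is from the GENCODE transcripts on the plus strand of GRCm38, and the capital marks the base that differs. The first pair starts at the start codon, at chr9:78232240-78232289 in Gsta1 and chr9:78258712-78258761 in Gm3776.
Gsta1, start of the coding sequence: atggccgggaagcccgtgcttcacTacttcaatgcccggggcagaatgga
Gm3776, start of the coding sequence: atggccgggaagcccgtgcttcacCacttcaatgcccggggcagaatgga
The second pair covers coding positions 567 to 616 of 672, toward the end but short of the stop codon. It lies at chr9:78242473-78242522 in Gsta1 and chr9:78268956-78269005 in Gm3776.
Gsta1, end of the coding sequence: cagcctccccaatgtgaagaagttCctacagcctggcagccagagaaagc
Gm3776, end of the coding sequence: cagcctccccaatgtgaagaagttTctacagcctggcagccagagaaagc

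Reads of this study were 50 bases long, and of the 825 stretches of that length in the Gm3776 transcript 685 (83.0%) are also found in the Gsta1 transcript. How such reads were divided between the copies is not given in the sources used here, so the level of either gene alone is uncertain. Gsta1 had 0.982, 1.14, 2.21, 2.06 and 2.32 FPKM in Gpr35+/+ libraries 1 to 5 and 5.29, 6.86, 3.81, 3.38 and 2.62 FPKM in Gpr35-/- libraries 1 to 5. Its values did not overlap between genotypes and were higher in the knockout, opposite to Gm3776, but its change of 1.11 did not pass the test (standard error 0.26, adjusted p = 0.90). The transcripts are of nearly equal length, 874 and 875 bases, so their FPKM can be added. The sum averaged 6.48 ± 2.29 FPKM across the Gpr35+/+ libraries and 4.55 ± 1.77 FPKM across the Gpr35-/- libraries (SD, n = 5 each), with a two-sided exact permutation p = 0.15. The sums overlapped, from 4.47 to 10.1 FPKM in Gpr35+/+ and from 2.74 to 7.15 FPKM in Gpr35-/- libraries. Of 22 tested glutathione transferases 9 had estimates above 0, the median was -0.01, and only Gm3776 was called. None of 19 tested NRF2 targets, the other detoxifying and antioxidant genes under the same regulator, had an unadjusted p under 0.05 (median -0.02).

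**Figure D3:**
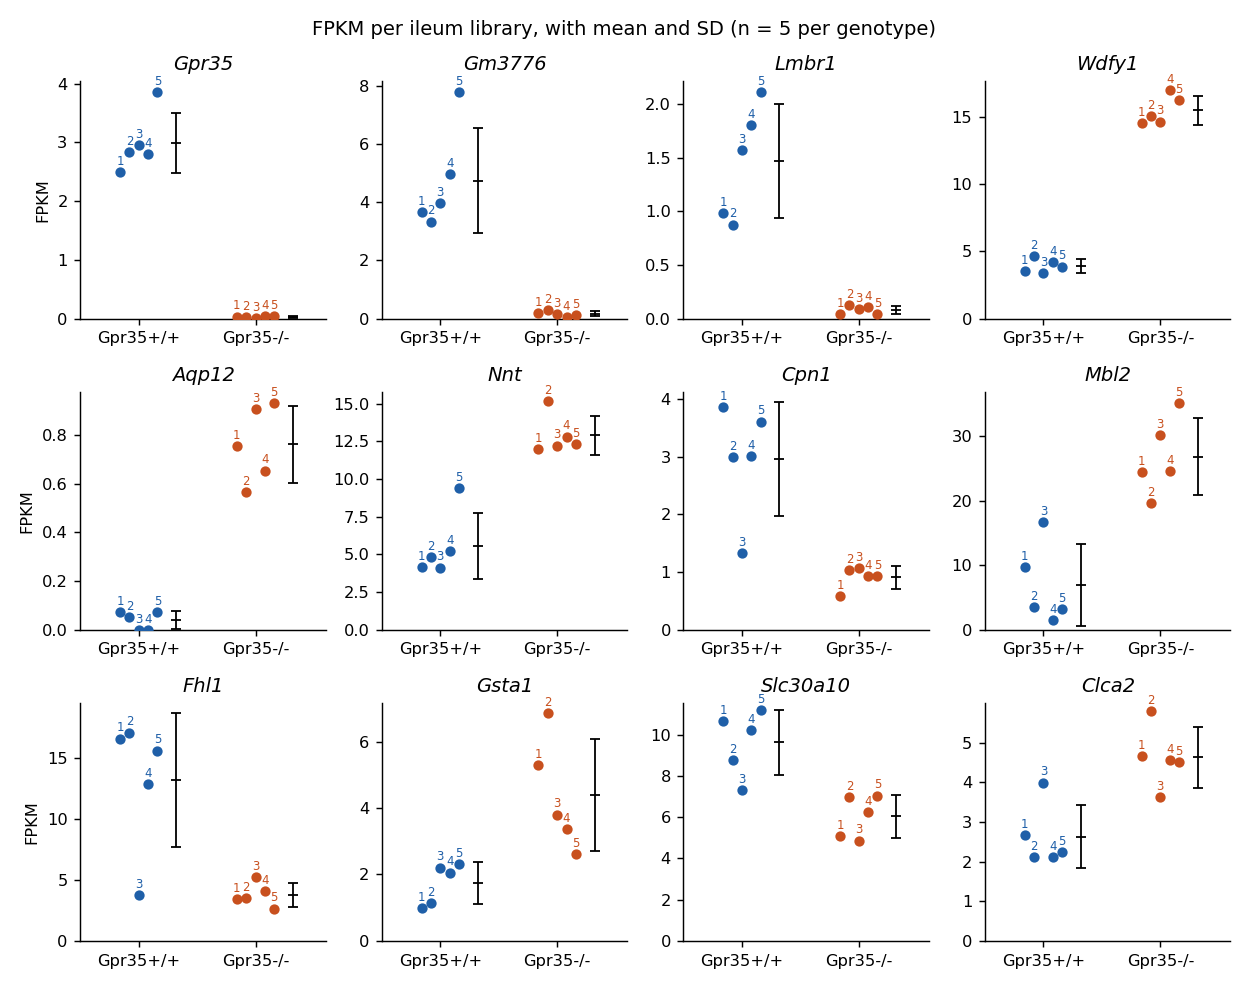
FPKM of genes named in the text in each ileum library, with the library number beside each point and the mean and SD to its right (n = 5 per genotype). The genotypes do not overlap for Gpr35, Gm3776, Lmbr1, Wdfy1 and Aqp12, the 5 genes that passed the adjusted threshold.

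Among the 25 genes with the smallest p, 15 were lower and 10 higher in Gpr35-/- ileum, and in 20 the genotypes did not overlap, an ordering that the choice by p favours. Next after the called genes came Nnt, the mitochondrial enzyme that makes NADPH at the cost of the proton gradient. Nnt had 4.17, 4.80, 4.13, 5.20 and 9.40 FPKM in Gpr35+/+ and 12.01, 15.2, 12.2, 12.8 and 12.3 FPKM in Gpr35-/- libraries 1 to 5, and Gpr35+/+ library 5 stood between the groups. Its change was 1.21 (standard error 0.19, adjusted p = 0.079). Nnt and Wdfy1 belong to a list of 6 genes that differ between the C57BL/6J and C57BL/6N sublines of laboratory mice. Of the 4 tested, 2 had an unadjusted p under 0.05, against 4.34% of all genes, and the median was 0.78. These 2 were Nnt and Wdfy1, and the lists were chosen with earlier results of these data known, so the count is no test. The other members tested, Cyfip2 and Ide, had 0.35 and -0.15. The strain is given as C57BL/6 with no subline, and the genotype at such loci and that at Gpr35 cannot be told apart.

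Cpn1, the catalytic subunit of the plasma carboxypeptidase that trims kinins and anaphylatoxins, was lower in every knockout library than in any Gpr35+/+ library. Its values were 3.86, 3.00, 1.33, 3.01 and 3.61 FPKM in Gpr35+/+ and 0.580, 1.03, 1.07, 0.932 and 0.928 FPKM in Gpr35-/- libraries 1 to 5, with an adjusted p of 0.19. Mbl2, the mannose-binding lectin that starts the lectin pathway of complement, had 9.70, 3.45, 16.7, 1.44 and 3.16 FPKM in Gpr35+/+ and 24.4, 19.6, 30.1, 24.6 and 35.0 FPKM in Gpr35-/- libraries. All knockout libraries were above all Gpr35+/+ libraries, but the Gpr35+/+ values spread widely and the change of 2.29 (standard error 0.52) had an adjusted p of 0.90. Without the 3 libraries at the low end of the first component both passed, Mbl2 at 3.24 (adjusted p = 0.0041) and Cpn1 at -1.44 (adjusted p = 0.0041). That setting was chosen after the data were seen. It leaves out the highest Gpr35+/+ values of Mbl2 (9.70 and 16.7 FPKM) and the lowest of Cpn1 (1.33 FPKM), so these calls are a description and not a test.

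Fhl1, a LIM-domain protein of muscle and stroma, showed how 1 library can decide a call. It had 16.6, 17.1, 3.76, 12.8 and 15.6 FPKM in Gpr35+/+ and 3.40, 3.50, 5.21, 4.09 and 2.65 FPKM in Gpr35-/- libraries 1 to 5. Gpr35+/+ library 3 alone lay among the knockout values, and the change of -1.55 had an adjusted p of 0.90 with it, whereas without it the change was -1.93 with an adjusted p of 0.00048.

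Other genes of the 25 carry ions, metals or lipids. Slc30a10, a manganese exporter of gut and liver, had 10.6, 8.78, 7.31, 10.2 and 11.2 FPKM in Gpr35+/+ and 5.07, 6.99, 4.86, 6.25 and 7.05 FPKM in Gpr35-/- libraries 1 to 5 (change -0.63, adjusted p = 0.67). The noncoding gene Gm2061 on the opposite strand overlaps it by 721 bases and was lower in the same way, at 5.63 to 9.23 FPKM against 3.77 to 5.54 FPKM (change -0.72, adjusted p = 0.33). The libraries were made with a strand-marking kit, but whether strand was used in counting is not given, so reads of these genes may have been shared. Atp10b, a phospholipid-moving P-type ATPase, ranged from 10.98 to 16.4 FPKM in Gpr35+/+ and from 17.6 to 21.3 FPKM in Gpr35-/- libraries (change 0.50, adjusted p = 0.43). Clca2, of a family that modulates chloride channels, ranged from 2.11 to 3.99 and from 3.63 to 5.80 FPKM (change 0.74, adjusted p = 0.67). Kcnj8, the pore of an ATP-sensitive potassium channel of vessels, ranged from 0.893 to 1.72 and from 0.539 to 0.766 FPKM (change -0.55, adjusted p = 0.90).

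The macrophage libraries of the same series, which did not enter the choice of these genes, allow one more look at them. Those libraries also held enterocyte transcripts, unevenly between genotypes. Fabp2 had 9.51 to 44.1 FPKM in the 5 Gpr35+/+ macrophage libraries and 26.1 and 13.3 FPKM in Gpr35-/- libraries 1 and 5. In Gpr35-/- macrophage libraries 2 to 4 it had 0.139 to 0.241 FPKM. The part of such transcripts in the macrophage changes was not tested. Of the 25 genes 14 were tested in macrophages, and 6 of the 14 had an unadjusted p under 0.05 there, against 10.5% of all genes tested in macrophages. All 6 had the direction seen in ileum: Gpr35, Wdfy1, Aqp12, Lmbr1, Nnt and the methyltransferase-like gene Mettl7a1. The deletion itself fixes Gpr35, and Aqp12 and Lmbr1 passed the ileum filter through a single genotype, so the 6 of 14 are a description and not a test. Mettl7a1 had -0.34 in ileum and -0.10 in macrophages, and Lmbr1 had -1.72 and -1.02. In a test of the difference between tissues over 11573 genes, Aqp12 and Gm3776 passed the adjusted threshold. Gm3776 was at 0 throughout the macrophage libraries, so its test restates the change in ileum.

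Gene groups tied to the receptor's known partners were next examined. None of 8 tested Na+/K+-ATPase and FXYD subunits had an unadjusted p under 0.05, 5 of the 8 had estimates above 0, and the median was 0.13, moving from -0.02 to 0.16 when single libraries were left out. Of 24 genes of epithelial sodium, potassium and chloride transport 14 had estimates above 0 (median 0.04). The potassium channel Kcnk5 was the 1 of them with an unadjusted p under 0.05, at -0.35, and the sodium-proton exchanger Slc9a3 had 0.60 (adjusted p = 1.0).

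Sodium-coupled carriers of nutrients other than amino acids leaned upward without a call. Of 19 tested, 15 had estimates above 0, with a median of 0.19 that ran from 0.02 to 0.27 when single libraries were left out, and 0 had an unadjusted p under 0.05. The glucose carrier Slc5a1 had 744, 442, 1127, 658 and 723 FPKM in Gpr35+/+ and 833, 1059, 795, 1042 and 940 FPKM in Gpr35-/- libraries 1 to 5. Gpr35+/+ library 3 was the highest of all 10 and library 2 the lowest, and the change was 0.39 (adjusted p = 1.0).

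Transcripts of the osmotic stress response lay on both sides of 0. Of 17 tested 7 had estimates above 0, 0 had an unadjusted p under 0.05, and the median was -0.03. Nfat5, the transcription factor of this response, had 2.66 to 4.13 FPKM in Gpr35+/+ and 2.79 to 5.06 FPKM in Gpr35-/- libraries (change 0.08). The taurine carrier Slc6a6 had a change of 0.01, with a 95% confidence interval reaching 0.21, and the salt-regulated kinase Sgk1 had -0.43 with an interval reaching 0.55. The largest change of the list was that of Akr1b3, at 0.89 (standard error 0.73). The carriers Slc6a12 and Slc5a3 were below the filter and could show no change. Of the p38 pathway and Src, 17 genes were tested, with a median of 0.01. Mapk14, which encodes p38 alpha, had 21.7, 19.3, 21.1, 19.96 and 19.4 FPKM in Gpr35+/+ and 19.0, 17.9, 17.6, 18.7 and 18.1 FPKM in Gpr35-/- libraries. These did not overlap, but the step was small, with a change of -0.15 and an adjusted p of 1.0.

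Genes of receptor signalling moved little. Of 18 tested G proteins and arrestins 10 had estimates above 0 (median 0.01), and beta-arrestin 1 (Arrb1) was the 1 gene with an unadjusted p under 0.05, at -0.37. Of 18 immediate early genes 8 had estimates above 0 (median -0.03), with Atf3 at -0.56 (adjusted p = 1.0). Of 7 tested genes of the kynurenine pathway, which makes the proposed ligand, 3 had estimates above 0 (median -0.03).

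**Figure D4:**
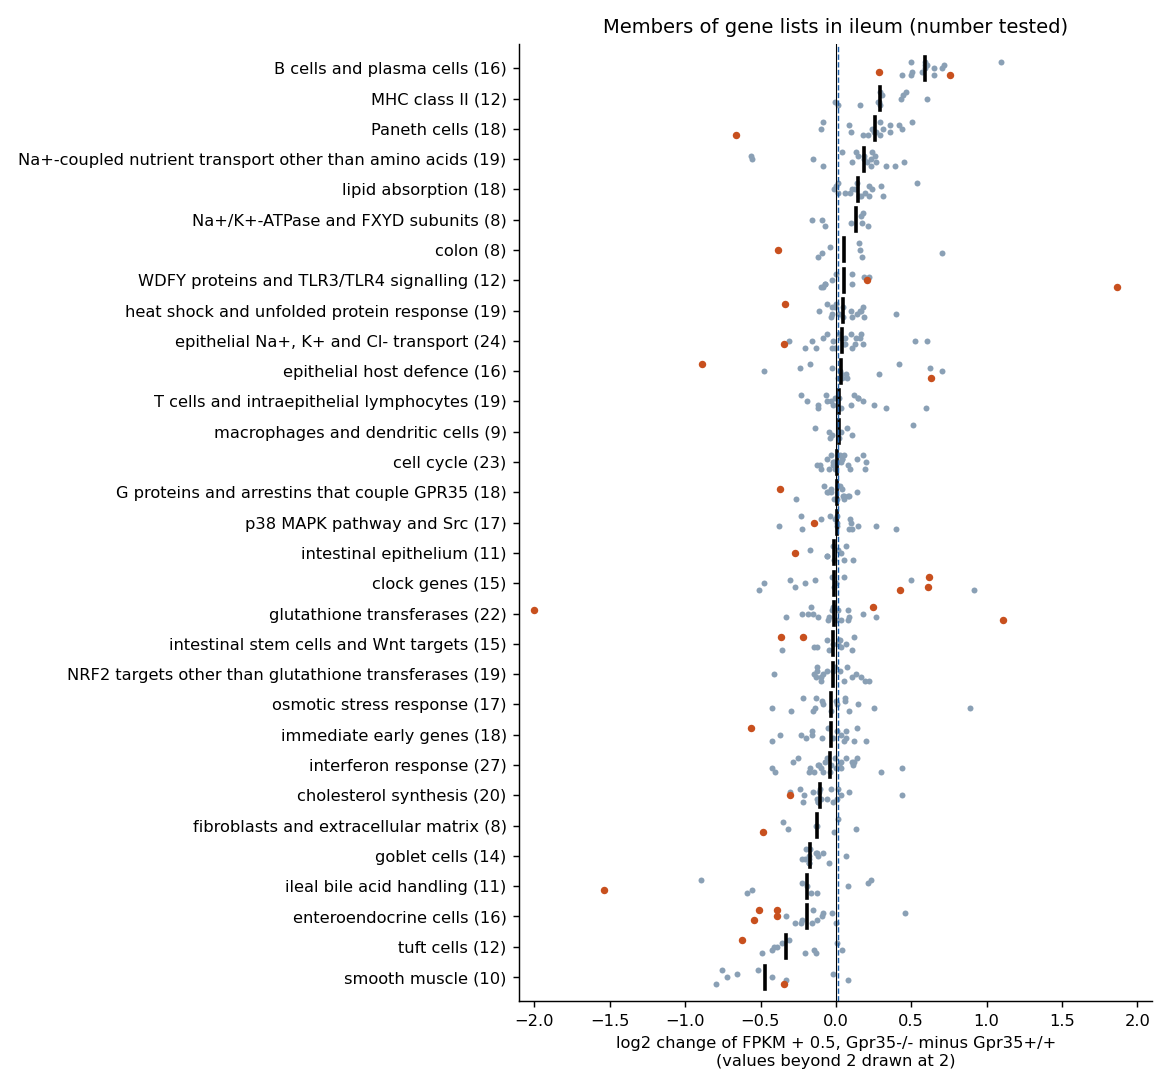
Log2 change of each tested member (points) of the gene lists, with the number tested beside each name, orange points for an unadjusted p under 0.05, a black bar at each list's median and a dashed line at the median of all genes; Gm3776 (-2.93) is drawn at the edge. Members of most lists lie on both sides of 0. Among the most one-sided lists, B cells and plasma cells (16 of 16), lipid absorption (17 of 18) and MHC class II (11 of 12) lie above 0. Enteroendocrine cells (1 of 16 above 0), goblet cells (1 of 14) and smooth muscle (1 of 10) lie mostly below.

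Markers of the cell types of the epithelium were described in the same way. In bulk tissue, fewer cells of a type and less RNA per cell cannot be told apart. Enteroendocrine cells are the scattered hormone-making cells of the gut wall. Of 16 tested genes 4 had an unadjusted p under 0.05, against 4.34% of all genes, and 1 had an estimate above 0, against 54.4%. None was called, and the median was -0.19, from -0.27 to -0.14 when single libraries were left out. Secretin (Sct) had 222, 198, 218, 246 and 170 FPKM in Gpr35+/+ and 165, 173, 173, 141 and 148 FPKM in Gpr35-/- libraries 1 to 5. Only Gpr35+/+ library 5 lay among the knockout values (change -0.39, adjusted p = 1.0). Chromogranin B (Chgb), a protein of hormone granules, had 15.4, 19.6, 25.6, 22.7 and 24.5 FPKM in Gpr35+/+ and 13.4, 17.4, 15.8, 12.7 and 13.2 FPKM in Gpr35-/- libraries (change -0.54, adjusted p = 0.98), with Gpr35+/+ library 1 within the knockout range. Tph1, the enzyme that starts serotonin synthesis, had -0.51 and the granule chaperone Scg5 -0.39. The member above 0 was Tac1, the precursor of substance P, at 0.46.

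Goblet cells secrete the mucus of the gut. Of 14 tested goblet cell genes 1 had an estimate above 0 and 0 had an unadjusted p under 0.05, with a median of -0.17 (-0.22 to -0.11 when single libraries were left out). The chloride channel regulator Clca3 had 1164, 1240, 1131, 1171 and 1227 FPKM in Gpr35+/+ and 951, 981, 1107, 1125 and 1092 FPKM in Gpr35-/- libraries 1 to 5. The genotypes did not overlap, and the change was -0.18. The mucin Muc2 also had -0.18 and the trefoil peptide Tff3 had -0.23, all with adjusted p of 1.0. Fcgbp and Muc13, further products of these cells, were among the rows left out, with 0 in each Gpr35-/- library.

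Paneth cells, which release antimicrobial peptides at the crypt base, had 15 of 18 genes above 0 and a median of 0.26. This lean rested on single libraries, since the median ran from -0.19 to 0.52 when one was left out and was -0.31 without the 3 libraries at the low end of the first component. Tuft cell genes had 2 of 12 above 0 and a median of -0.33. Their summed level was 104 FPKM in Gpr35+/+ library 1 and 27.7 to 41.6 FPKM in the other libraries, and the median was 0.06 without the 3 libraries of low Dbp. Stem cell genes and Wnt targets had 7 of 15 above 0 (median -0.02), with Hopx, a marker of reserve stem cells, at -0.36 (adjusted p = 1.0). Cell cycle genes had 12 of 23 above 0 and a median of 0.01.

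Of 16 genes of epithelial host defence 11 had estimates above 0, with a median of 0.04, and 2 had an unadjusted p under 0.05 in opposite directions. Sprr1a, a cornified envelope protein that also acts against bacteria, had 12.8, 14.2, 5.78, 11.6 and 11.3 FPKM in Gpr35+/+ and 3.93, 6.58, 5.93, 7.15 and 4.68 FPKM in Gpr35-/- libraries 1 to 5. Gpr35+/+ library 3 again was the single one within the knockout range (change -0.89, adjusted p = 0.985). Pigr, the receptor that carries IgA across the epithelium, had 773, 1027, 903, 453 and 720 FPKM in Gpr35+/+ and 1051, 861, 1251, 1470 and 1255 FPKM in Gpr35-/- libraries, a change of 0.63 (adjusted p = 1.0).

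The list with the highest median was that of B cells and plasma cells, among those with at least 5 members tested. All 16 tested members had estimates above 0, against 54.4% of all genes. Their median was 0.59, which stayed between 0.38 and 0.86 when single libraries were left out. Of the 16 genes 2, Xbp1 and Mzb1, had an unadjusted p under 0.05, against 4.34% of all genes. Xbp1 is not confined to plasma cells, and its level, given below, is part of the sum. The summed level was 209, 355, 187, 185 and 176 FPKM in Gpr35+/+ and 369, 197, 351, 389 and 315 FPKM in Gpr35-/- libraries 1 to 5. The groups overlapped, since Gpr35+/+ library 2 lay among the higher knockout values and Gpr35-/- library 2 among the lower Gpr35+/+ values. Xbp1, the transcription factor of secretory cells such as plasma cells, had 77.1, 75.9, 90.2, 84.7 and 80.5 FPKM in Gpr35+/+ and 105, 99.6, 104, 96.8 and 91.5 FPKM in Gpr35-/- libraries. These did not overlap (change 0.28, adjusted p = 1.0). Igj, the chain that joins secreted IgA, had 1.09 (standard error 0.58), with a 95% confidence interval from below 0 to 2.40. The B cell antigen CD20 (Ms4a1) had 0.72 and Cd79a, part of the B cell receptor, 0.65. None of Igj, Ms4a1 and Cd79a had an unadjusted p under 0.05. MHC class II genes had 11 of 12 estimates above 0 and a median of 0.29. T cell and intraepithelial lymphocyte genes had 10 of 19 above 0 (median 0.02), macrophage and dendritic cell genes 5 of 9 (median 0.02), and interferon response genes 11 of 27 (median -0.04).

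Genes of the muscle layer ran the other way. Of 10 tested smooth muscle genes 1 had an estimate above 0, and the median was -0.47 (-0.80 to -0.21 when single libraries were left out). Smoothelin (Smtn), the 1 of these with an unadjusted p under 0.05, had -0.35. Of 8 tested fibroblast and matrix genes 2 had estimates above 0. Their median was -0.13 (-0.35 to -0.03 when single libraries were left out). The collagen Col3a1, at -0.49, was the 1 of them with an unadjusted p under 0.05. The summed level of the smooth muscle list was 248 to 310 FPKM in Gpr35+/+ and 228 to 295 FPKM in Gpr35-/- libraries, overlapping over most of that range. Acta1, the actin of skeletal muscle, ranged from 12.1 to 100 FPKM in Gpr35+/+ and from 2.24 to 34.7 FPKM in Gpr35-/- libraries (change -1.86, adjusted p = 1.0). The other skeletal muscle genes tested did not share this change, with Tnni2 at 0.15 and Mylpf at -0.002. The part of muscle or lymphoid tissue taken with each sample in these differences was not tested.

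Bile acid handling is the task of the ileal epithelium in particular. Of 11 tested genes 3 had estimates above 0, and the median was -0.19. Nr0b2, the nuclear receptor SHP that the bile acid receptor switches on, had 4.38, 0.969, 2.25, 9.81 and 3.55 FPKM in Gpr35+/+ and 0.475, 1.63, 0.634, 1.08 and 0.582 FPKM in Gpr35-/- libraries 1 to 5. Gpr35+/+ library 2 lay among the knockout values, and the change was -1.53 (standard error 0.44, adjusted p = 1.0). Fgf15, the hormone by which the ileum slows bile acid synthesis in the liver, had 137, 36.1, 60.7, 162 and 68.5 FPKM in Gpr35+/+ and 10.4, 74.4, 56.8, 57.8 and 57.4 FPKM in Gpr35-/- libraries, which overlapped widely (change -0.89, 95% confidence interval -2.18 to 0.40).

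Cholesterol synthesis genes had 5 of 20 estimates above 0 and a median of -0.11. Lipid absorption genes had 17 of 18 above 0 with a median of 0.15, but the median ran from -0.06 to 0.34 when single libraries were left out. Their sum was highest in Gpr35+/+ library 3 (14570 FPKM) and Gpr35-/- library 2 (14335 FPKM), 2 of the 3 libraries at the low end of the first component.

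Clock genes differed between libraries of the same genotype. Dbp, a clock-driven transcription factor with a steep daily rhythm, had 1.01, 0.885, 7.55, 6.62 and 5.35 FPKM in Gpr35+/+ and 1.61, 9.12, 6.46, 10.2 and 10.6 FPKM in Gpr35-/- libraries 1 to 5. Arntl, the clock activator whose rhythm runs opposite, had 21.4, 18.5, 11.1, 9.92 and 9.63 FPKM in Gpr35+/+ and 14.5, 10.3, 7.92, 7.07 and 7.98 FPKM in Gpr35-/- libraries. Gpr35+/+ libraries 1 and 2 and Gpr35-/- library 1 thus had the lowest Dbp and the highest Arntl of all 10. Of 15 tested clock genes 6 had estimates above 0 (median -0.01) and 3 had an unadjusted p under 0.05, none of them called: the Dbp relative Tef at 0.61, the repressor Nr1d2 at 0.62 and Per3 at 0.42. The low-Dbp libraries were 2 of 5 in Gpr35+/+ and 1 of 5 in Gpr35-/-. Their part in the difference was not tested.

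**Figure D5:**
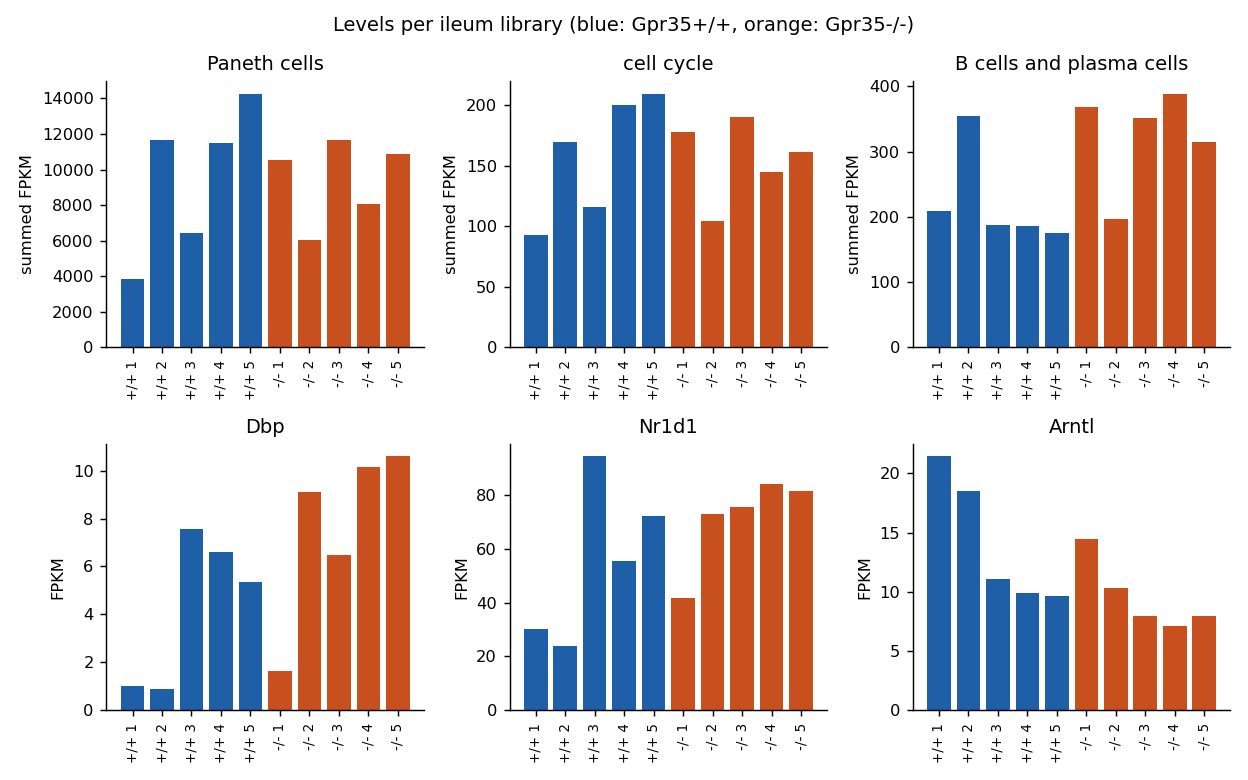
Summed FPKM of Paneth cell, cell cycle and B cell and plasma cell genes (above) and FPKM of the clock genes Dbp, Nr1d1 and Arntl (below) in each ileum library, blue for Gpr35+/+ and orange for Gpr35-/-. Dbp is low in Gpr35+/+ libraries 1 and 2 and Gpr35-/- library 1, and the summed Paneth cell genes are low in Gpr35+/+ libraries 1 and 3 and Gpr35-/- library 2 (3869, 6443 and 6048 FPKM, against 8033 to 14264 FPKM in the others).

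Promoter sequences of these 3 genes, from RefSeq on GRCm38.p6, are shown because they hold the letters of known clock elements. Windows from 250 bases before to 50 bases from the gene start on were searched on both strands for the E-box CACGTG, the D-box TTATGTAA and the core AGGTCA of the element bound by ROR and REV-ERB proteins, and capitals mark a match. The E-box letters occur in 7.15% of all 32851 promoter windows, the D-box letters in 0.938% and the core letters in 16.3%. A match describes letters and not a bound site. The stretch of Tef is at chr15:81802499-81802598 on the plus strand, that of Per3 at chr4:151044816-151044915 on the minus strand and that of Nr1d2 at chr14:18239131-18239230 on the minus strand.
Tef: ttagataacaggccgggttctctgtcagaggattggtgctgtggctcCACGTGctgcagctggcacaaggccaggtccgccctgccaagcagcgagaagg
Per3: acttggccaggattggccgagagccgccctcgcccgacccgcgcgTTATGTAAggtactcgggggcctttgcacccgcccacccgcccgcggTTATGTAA
Nr1d2: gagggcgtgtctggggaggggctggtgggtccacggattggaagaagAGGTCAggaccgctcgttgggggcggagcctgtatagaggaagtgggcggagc

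Exact zeros limit what can be said of some highly expressed genes. Of the ileum rows 4883 were listed at 0 in all 10 libraries, and 15 of these had 1 FPKM or more in all 10 macrophage libraries. Anpep, a peptidase of the brush border, was listed at 0 in every ileum library and at 303 to 371 FPKM in macrophages, and the enterocyte genes Apoa1 and Fabp2 were listed at 0 in every ileum library too. Among the 5 rows left out, Reg3b, an antibacterial lectin, was listed at 6913 to 15709 FPKM in Gpr35+/+ and Sepp1, a selenium carrier, at 2492 to 5698 FPKM, with 0 in all Gpr35-/- libraries. The values of these rows are not read as a difference between genotypes.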

How the data were processed

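RNA of 5 Gpr35+/+ and 5 Gpr35-/- ileum samples was made into TruSeq stranded mRNA libraries and sequenced as 50 bp single-end reads. The authors deposited FPKM per gene, with 0 value columns that name no sample. The submitters' processing notes name GRCm38 as the build. For the aligner, counter and gene models, names were not given in the sources used here. The tests planned for counts were replaced by limma 3.58.1 in R 4.3.3 (trend, robust) on log2(FPKM + 0.5). Rows with a date in place of a name (27) and 5 rows at 0 in a single genotype were left out. Of the names, 99.4% matched GENCODE or RefSeq, which gave the coordinates. Figures and sums were made in Python 3.11.15.

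The members and the 41 gene lists were chosen with earlier results of these data known, and lists are described by counts and medians beside those of all genes. The genes named are Gpr35, called genes, those with the smallest p, members of each list with the smallest p or the highest mean, genes within 2 Mb of Gpr35 and rows left out. Gsta1, Snora68, Scarna6, Tac1, Nfat5, Slc6a6, Sgk1, Tlr3, Ticam1 and further list members outside these rules were chosen after their values were seen. The scripts were tested on simulated data. Alternatives changed the pseudocount, filter, normalization, weights, spread, replicate block, tissues fitted and libraries left out. Precision rests on the 5 libraries per genotype, since depth is known only relative to 1 library. Some genes that these rules name were left out of the text.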

Additional observations from a re-analysis of the deposited data

Results flagged for a closer look

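In 13 of 160 groups of 5 libraries, the highest or lowest library stood apart from the rest by more than Dixon's critical value of 0.71, the gap to its nearest neighbour divided by the range of the group. Chance alone gives about 1 group in 20. In Gpr35+/+ ileum this ratio was 0.797 for Nnt (library 5 high), 0.747 for Tph1 (library 1 low), 0.713 for Fabp6 (library 3 low), 0.823 for Mzb1 (library 2 high), 0.722 for Acta1 (library 1 high), 0.863 for the amino acid carrier Slc6a14 (library 2 high, at 20.4 FPKM against 0.262 to 3.03 FPKM) and 0.819 for Xist. In Gpr35-/- ileum it was 0.743 for Nnt (library 2 high), 0.725 for Fgf15 (library 1 low), 0.741 for Cd79a, 0.766 for Smtn, 0.837 for Col3a1 and 0.736 for Nr1d1 (library 1 low).

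In the test of the difference between tissues, the change in macrophages minus that in ileum was 2.93 for Gm3776, which is listed at 0 in all macrophage libraries so that the value is its ileum change with the sign turned, and 1.70 for Aqp12, which is near 0 in Gpr35+/+ ileum. The tables of the 2 tissues were scaled separately, which matters most for such low genes.

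Among the rows left out, C230081A13Rik was listed at 0 in all Gpr35+/+ ileum libraries and had a median of 6.53 FPKM in Gpr35-/- ileum, from 5.72 to 7.27 FPKM. In macrophages it was present in all libraries of both genotypes, at 15.6 to 21.5 FPKM.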

How the results depend on the processing

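Gpr35, Gm3776 and Wdfy1 were called under all 23 alternatives, 21 planned and 2 added after seeing the data. Lmbr1 and Aqp12 could be tested in 22, since both fall below a mean of 1 FPKM, and lost the call with the replicate number as a block (adjusted p = 0.094 for each); Aqp12 lost it also without the 3 libraries of low Dbp (0.072, with a change of 1.26). Same-numbered libraries did not deviate together over all genes (correlations -0.42 to 0.0084, 0 libraries closest to their own number). The labels do not say what the numbers stand for, and such correlations cannot decide whether they pair the libraries. With the replicate block 1 gene was called higher, 2 lower, and 338 had an unadjusted p under 0.05.

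Genes called higher, 2 as reported, numbered 1 with a mean of at least 1 FPKM, 4 with the rows at 0 in one genotype kept, 14 with both tissues in 1 fit, 13 without the 3 libraries at the low end of the first component, and 2 to 4 when single libraries were left out (4 without Gpr35+/+ library 3 or Gpr35-/- library 2). Genes called lower, 3 as reported, numbered 7 with the rows at 0 kept, 18 with both tissues, 19 without the 3 libraries of the first component, and 3 to 10 when single libraries were left out (10 without Gpr35+/+ library 3). The count with an unadjusted p under 0.05, 502 as reported, was 840 with no filter (18446 genes), 985 with weights per library, 1107 with both tissues, 1498 without the 3 libraries of the first component, and 343 to 767 when single libraries were left out. Genes without overlap, 99 as reported, numbered 636 without the 3 libraries of low Dbp, 1415 without the 3 of the first component and 140 to 302 when single libraries were left out, as fewer libraries overlap less by construction. Of 1834 single gene values under alternatives, 3 lost and 32 gained a call, and 0 values of called genes changed sign. Among genes not called, 2 values changed sign with a move of at least the spread within genotypes. Smaller changes of sign in genes not called were not counted apart. All 782 list medians moved by less than the typical spread of a single member within genotypes, a wide bar for a median. Medians could still change sign. That of Paneth cells ran from -0.315 to 0.516, and that of cell cycle genes kept its sign in 13 of 23 alternatives. That of B cells and plasma cells kept its sign in 23 of 23.

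Depth is known only in relative terms, and low genes such as Aqp12 and Lmbr1 rest on few reads.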

Other observations

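Without the 3 libraries at the low end of the first component, a setting chosen after seeing the data, the 32 genes called included the growth factors Ereg (-0.94, adjusted p = 0.0056 from limma) and Areg, ligands of the EGF receptor, and Smpdl3b, a lipid-modifying phosphodiesterase (0.88, adjusted p = 0.0041), beside Mbl2, Cpn1 and Fhl1. These genes were picked for naming after their values were seen, and none of the 3 newly named passed with all libraries.

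The 5 genes with the widest spread within genotypes were small RNAs, Scarna17, Snord47, Mir3960, Mir1895 and Snord33. Scarna17 had 640, 1387, 2399, 0 and 0 FPKM in Gpr35+/+ and 254, 758, 1078, 0 and 406 FPKM in Gpr35-/- libraries 1 to 5. Both genotypes held libraries at 0.

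Madcam1, the adhesion molecule by which lymphocytes enter the gut wall, was outside the rule for naming and picked after its values were seen. It had 0.159, 0.460, 0.249, 0.256 and 0.575 FPKM in Gpr35+/+ and 1.87, 0.346, 1.25, 1.25 and 1.48 FPKM in Gpr35-/- libraries 1 to 5, with a change of 1.00. Gpr35-/- library 2 alone lay among the Gpr35+/+ values. The same library had the lowest summed level of B cell and plasma cell genes of its genotype. In Gpr35+/+ the order differed. Library 5 had the highest Madcam1 (0.575 FPKM) with the lowest such sum (176 FPKM), and library 2 the highest sum (355 FPKM) with 0.460 FPKM. Madcam1 was not called with all libraries, and a link between these levels was not tested.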
